A study of Mus musculus with 52 samples.

Results

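The genes described here encode enzymes of cholesterol synthesis, with Insig1, a sterol sensor of the same pathway. They were followed in mouse liver after a single administration of 8 chemicals and in the vehicle controls. The list held 8 genes, Hmgcs1, Pmvk, Idi1, Fdps, Sqle, Lss, Cyp51 and Insig1. A probe set was taken as a member when the array annotation gave it 1 gene symbol and that symbol was in the list. This found 16 of 22626 probe sets, for 7 of the 8 genes, and 15 of the 16 were above the floor in at least 4 of the 52 arrays and were kept, beside 18349 of all probe sets. The probe set left out was a second one for Fdps, at the floor in 52 of 52 arrays. Insig1 had no probe set under its own symbol and is not reported. The brightest kept probe set (by mean signal) stood for its gene, so that no gene was lost through the filter on low values, and all 7 were above the floor in every array.

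Each array held liver RNA pooled from 5 male B6C3F1 mice, and each chemical or control had 1 array at 4 h, 20 h, 14 days and 28 days after dosing. Of the 6 genotoxic chemicals, 3 were nitroso compounds, given as 150 mg/kg of ENU (N-ethyl-N-nitrosourea), 5 mg/kg of DMN (dimethylnitrosamine) and 250 mg/kg of DPN (dipropylnitrosamine). The other 3 were aromatic, given as 300 mg/kg of AAT (o-aminoazotoluene), 20 mg/kg of DMBA (7,12-dimethylbenz[a]anthracene) and 6 mg/kg of DBP (dibenzo[a,l]pyrene). The 2 non-genotoxic chemicals were 1000 mg/kg of EtOH (ethanol) and 30 mg/kg of PB (phenobarbital). ENU, DMN and DPN each had a saline control of their own, EtOH and PB shared 1 saline control, and AAT, DMBA and DBP shared 1 olive oil control, which gave 5 controls and 13 arrays at each time. A pool averages its mice, so p-values measure the spread between arrays and not between mice. In whole liver, fewer cells of a type and less RNA per cell cannot be told apart.

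The liver makes much of the body's cholesterol. Hmgcs1 makes HMG-CoA from acetyl-CoA, HMG-CoA reductase turns it into mevalonate, and Pmvk, Idi1 and Fdps carry mevalonate to farnesyl pyrophosphate. Sqle and Lss then turn squalene into lanosterol, and Cyp51 removes a methyl group from lanosterol on the way to cholesterol. When sterol in the membrane of the endoplasmic reticulum falls, the SREBP2 protein is escorted to the Golgi by Scap and cleaved there by the proteases Mbtps1 and Mbtps2, and it then switches these genes on together, while the Insig proteins hold it back when sterol is plentiful.

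The promoters of Hmgcs1, Idi1 and Cyp51 are shown because these 3 genes stand at the start, in the middle and at the end of the part of the pathway measured here. RefSeq (GRCm38.p6) gave a promoter for 6 of the 8 genes, not for Sqle or Fdps, and the 250 bases before the start of the gene were searched on both strands. The motifs were the sterol regulatory element TCACNCCAC, the CCAAT box CCAAT and the GC box GGGCGG. They do not overlap in the windows printed, and capitals mark each match on either strand. Hmgcs1 lies at chr13:119690101-119690350, forward strand. Idi1 lies at chr13:8885356-8885605, forward strand. Cyp51 lies at chr5:4104698-4104947 and is printed on its own, reverse, strand.
Hmgcs1: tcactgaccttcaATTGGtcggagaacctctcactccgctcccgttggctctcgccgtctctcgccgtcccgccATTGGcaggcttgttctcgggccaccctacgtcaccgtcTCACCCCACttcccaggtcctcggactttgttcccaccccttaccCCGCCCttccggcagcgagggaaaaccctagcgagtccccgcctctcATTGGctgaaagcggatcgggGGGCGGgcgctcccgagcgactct
Idi1: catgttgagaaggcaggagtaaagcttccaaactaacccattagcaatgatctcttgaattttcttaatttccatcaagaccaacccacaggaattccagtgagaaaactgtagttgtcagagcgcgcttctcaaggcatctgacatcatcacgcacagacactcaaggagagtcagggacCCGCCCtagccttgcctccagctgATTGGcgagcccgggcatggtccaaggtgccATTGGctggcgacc
Cyp51: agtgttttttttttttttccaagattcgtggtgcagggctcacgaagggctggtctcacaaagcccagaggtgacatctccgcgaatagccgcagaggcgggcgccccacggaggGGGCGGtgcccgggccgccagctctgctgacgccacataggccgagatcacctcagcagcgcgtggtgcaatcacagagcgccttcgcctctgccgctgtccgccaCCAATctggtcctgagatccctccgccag

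The sterol regulatory element in this spelling was found in Hmgcs1 only among the 6, as TCACCCCAC from 137 to 129 bases before the start. Of 32851 promoters of the same length, 1.05% held it. Other spellings were not searched, so a window without a match may still hold such an element. The CCAAT box was found in at least 1 window of each of the 6 genes, beside 33.8% of all promoters. Pmvk has 2 windows, the first with 1 CCAAT box and the second, at chr3:89459321-89459570, with 0. The GC box was found in 5 of the 6 genes, in neither window of Pmvk, beside 32.7% of all. A match in these windows is a description of letters, and whether a factor binds there was not measured.

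Some arrays stood apart. The median signal of an array was between 17.9 and 205, and all arrays were scaled to a common median before log2 was taken. The brightest array was the 14 day DMN control, the other 14 day controls ran from 40.5 (ENU control) to 80.3, and the dimmest array was PB at 28 days. Of 10 hepatocyte markers 8 were measured, each among the brightest probe sets, as whole liver should give. On the 20 h EtOH array the 3' to 5' log2 ratio was 3.13 for Gapdh and 3.79 for actin, against -0.51 to 0.34 and 0.15 to 1.28 on the other 51 arrays. Cyp2b10, the cytochrome P450 that PB induces, went against the labels at 20 h. Its log2 level was 11.48 on the array labelled as the saline control of the EtOH and PB set, 8.25 on the array labelled PB and 6.19 to 7.26 on the other 4 controls. At 4 h the array labelled PB was at 11.98 and the saline control of that set at 8.28. The 20 h results for EtOH and PB therefore rest on a control whose label is in doubt. Some values are also given without that set, or with the 2 labels exchanged. The other 20 h values use the labels as given. They include the fitted control differences, the differences between saline controls, the counts against all controls, the fitted non-genotoxic values and the class differences.

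In the vehicle controls all 7 genes were lower at 14 days than at 20 h, and each passed the test. The differences ran from -1.46 for Cyp51 to -0.71 for Lss on the log2 scale. The question of this comparison is how far the genes differed between controls of different times, without a chemical. Time after dosing cannot be told apart here from the age of the mice, the hour of sampling or differences between arrays. The median signal of the control arrays before scaling was 67.5 to 91.6 at 20 h and 40.5 to 205 at 14 days. The 7 genes had 5 control arrays at each time, fitted with limma across all kept probe sets with the control set as a block, and a call was an adjusted p (Benjamini-Hochberg) under 0.05 over all of them. The 14 day controls stood apart more widely, since 13.2% of all probe sets were called lower and 584 probe sets were called higher. With quantile normalization 709 were called lower, 3.86%, and 712 higher, and 4 of the 7 genes were then called.

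Cyp51, the lanosterol demethylase, had log2 levels of 8.55, 8.76, 8.15, 9.23 and 8.79 in the 20 h controls of the ENU, DMN, DPN, EtOH and PB, and olive oil sets. At 14 days the same sets gave 6.99, 8.06, 6.35, 7.56 and 7.21. The 2 groups of 5 arrays did not overlap. The fitted difference was -1.46 (SE 0.23, n = 5 arrays at each time, limma adjusted p = 0.00356). Fdps, which makes farnesyl pyrophosphate, was at 11.24, 11.12, 10.56, 11.34 and 11.17 at 20 h in the same order of sets. At 14 days it was at 8.86, 10.48, 9.53, 9.87 and 9.75. The lowest 20 h array lay just above the highest array of 14 days, the DMN control, and the difference was -1.39 (SE 0.23, limma adjusted p = 0.00369).

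Pmvk, the kinase of phosphomevalonate, fell by 1.32 (SE 0.25, limma adjusted p = 0.00609). Its levels were 8.05, 8.02, 7.02, 8.17 and 7.96 at 20 h and 5.96, 7.18, 6.23, 6.42 and 6.80 at 14 days. The DPN control at 20 h lay below the DMN control at 14 days, so that the groups overlapped by that pair. Sqle, which oxidises squalene, fell by 1.23 (SE 0.28, limma adjusted p = 0.0126). Its levels were 8.60, 8.03, 7.95, 8.78 and 9.21 at 20 h and 6.47, 8.01, 7.02, 7.39 and 7.51 at 14 days. The DMN set barely moved, while the ENU set fell the furthest.

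Hmgcs1, Idi1 and Lss fell less. Hmgcs1, the first enzyme listed, fell by 1.09 (SE 0.33, limma adjusted p = 0.0378). Its levels were 10.92, 10.63, 10.02, 11.45 and 11.64 at 20 h and 9.31, 10.60, 9.82, 9.94 and 9.52 at 14 days. Idi1, the isopentenyl pyrophosphate isomerase, fell by 1.02 (SE 0.24, limma adjusted p = 0.0147), and Lss, the lanosterol synthase, by 0.71 (SE 0.16, limma adjusted p = 0.0116). Within each set the 14 day array lay below that of 20 h in 35 of 35 pairs of a gene and a set. In the DMN set the difference was only -0.03 for Hmgcs1 and -0.02 for Sqle. The genes move together, so these pairs are not separate observations, and the share of all probe sets was not computed. The count of 7 called genes was 3 without the olive oil controls, 4 without the ENU or the DPN controls, 6 without those of EtOH and PB, and 7 without those of DMN.

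**Figure D1:**
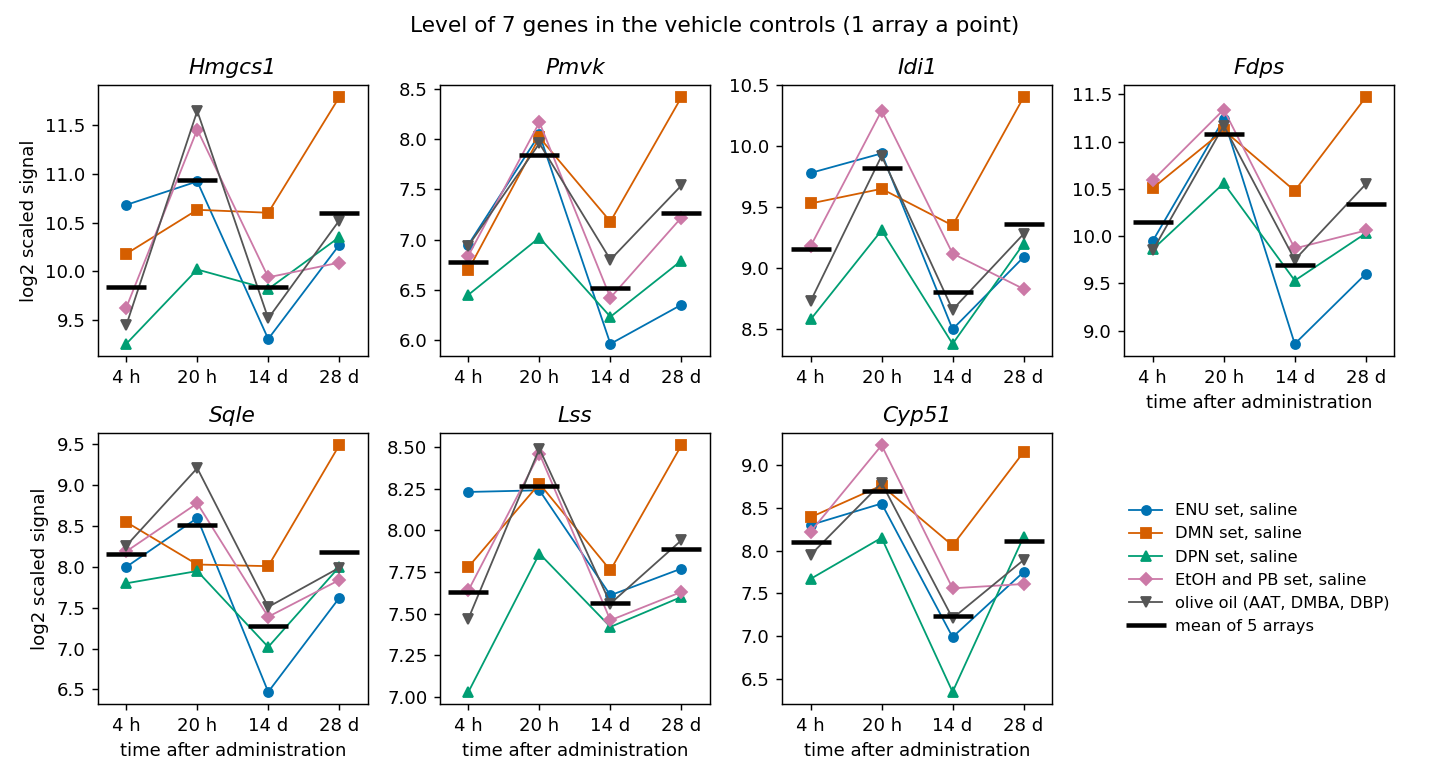
Log2 scaled signal (y axis) of 7 genes in the 5 vehicle controls at 4 times (x axis), 1 point for each array, joined within a control set, with the mean of 5 arrays as a bar. For Cyp51 the 20 h arrays sit between 8.15 and 9.23 and the 14 day arrays between 6.35 and 8.06, and at 28 days the DMN control is the highest for all 7 genes.

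From 4 h to 20 h the levels of all 7 genes were higher, by 0.35 for Sqle to 1.09 for Hmgcs1, but 0 of 7 passed the limma test, with adjusted p from 0.214 to 0.863. At an unadjusted p under 0.05 there were 6. Few probe sets of any kind passed here, 0.0109% of all. Pmvk had the smallest adjusted p, at 0.214, with a difference of 1.06 (SE 0.25, n = 5). Its 4 h levels were 6.95, 6.70, 6.45, 6.84 and 6.94, all below every array of 20 h. In 34 of 35 pairs of a gene and a set the 20 h array was above that of 4 h, the exception being Sqle in the DMN set, at 8.55 and 8.03. These pairs too are not separate observations, and the share of all probe sets was not computed.

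From 14 to 28 days the levels of all 7 genes were higher again, and 3 passed the test, Sqle by 0.91 (SE 0.28, limma adjusted p = 0.0381), Cyp51 by 0.88 (SE 0.23, limma adjusted p = 0.0198) and Pmvk by 0.75 (SE 0.25, limma adjusted p = 0.0482). The background was 15.7% of all probe sets called higher, and 566 were called lower. With quantile normalization 450 were called higher, 402 lower and 0 of the 7 genes. Without the olive oil, ENU or DPN controls 0 genes were called, 1 without those of DMN, 4 without those of EtOH and PB and 0 without the 28 day DMN control alone. This comparison shares its 14 day arrays with the one before, so the return at 28 days is not a separate sign of the low level at 14 days.

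The other 3 pairs of times gave 1 call in all. Cyp51 was lower at 14 days than at 4 h, by -0.87 (SE 0.23, limma adjusted p = 0.0291), beside 9.6% of all probe sets called lower, and the count was 0 without the olive oil, ENU or DPN controls and 2 without those of DMN. On the second Cyp51 probe set the value was -0.12, and the call was also lost without scaling, with quantile normalization, with no filter, with no block and in the saline controls alone. Sqle was at -0.88 (SE 0.28) with an adjusted p of 0.0549 in the same limma fit. Between 28 days and 20 h, 0 of 7 passed in limma (4 at an unadjusted p under 0.05, background 0.0%), with differences from -0.74 to -0.33. Between 28 days and 4 h, 0 of 7 passed in limma (1 at an unadjusted p under 0.05, background 0.196%), with differences from 0.00 to 0.76. The 20 h array was the highest of its set in 25 of 35 cases and the 28 day array in 10, with no share of all probe sets computed.

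The control sets differed among themselves. The DMN control was the highest of the 5 controls for 7 of 7 genes at 14 days and again at 28 days. These genes move together, and the share of all probe sets highest in that control was not computed. At 14 days the DMN control also had the highest median signal before scaling, 205, and its part in these levels was not tested. At 28 days its Hmgcs1 level was 11.78, against 10.09 to 10.52 in the other controls. At 28 days its Sqle level was 9.49 and the other 4 were at 7.62 to 8.0. The largest difference between 2 saline controls of the same time ran, over the 7 genes, from 0.50 to 1.42 at 4 h, from 0.60 to 1.44 at 20 h, from 0.34 to 1.71 at 14 days and from 0.91 to 2.07 at 28 days. The 1.44 at 20 h was for Hmgcs1, at 10.02 in the DPN control and 11.45 in the EtOH and PB control. The label of the EtOH and PB control is in doubt at 20 h. Apart from that array, Pmvk at 20 h was at 8.05 in the ENU control and 7.02 in the DPN control. At each time at least 1 gene thus differed by more than 2-fold, 1 on the log2 scale, between saline pools.

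The remaining enzymes of the pathway were read from a list of 14 genes, of which 11 were measured, in the same fit. From 20 h to 14 days 11 of 11 had lower values and 7 passed, beside 13.2% of all probe sets called lower. The median was -0.59 over the 11 and -0.09 over all probe sets. Msmo1, a sterol methyl oxidase, fell by 1.18 (SE 0.24, limma adjusted p = 0.00829), and Fdft1, the squalene synthase, fell by 1.03 (SE 0.26, limma adjusted p = 0.0186). Nsdhl and Dhcr7, late enzymes of sterol synthesis, each fell by 0.75, Hsd17b7 by 0.59, Lbr by 0.57 and Sc5d by 0.45. Mvk, Mvd, Tm7sf2 and Ebp did not pass, with values from -0.67 to -0.20. From 14 to 28 days 11 of 11 had values of 0.00 or above and 3 passed, beside 15.7% of all, Fdft1 (0.84), Msmo1 (0.83) and Lbr (0.68). From 4 h to 20 h 11 of 11 were higher and 0 passed in limma, with Dhcr7 the nearest at 0.96 (SE 0.16, limma adjusted p = 0.0766).

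**Figure D2:**
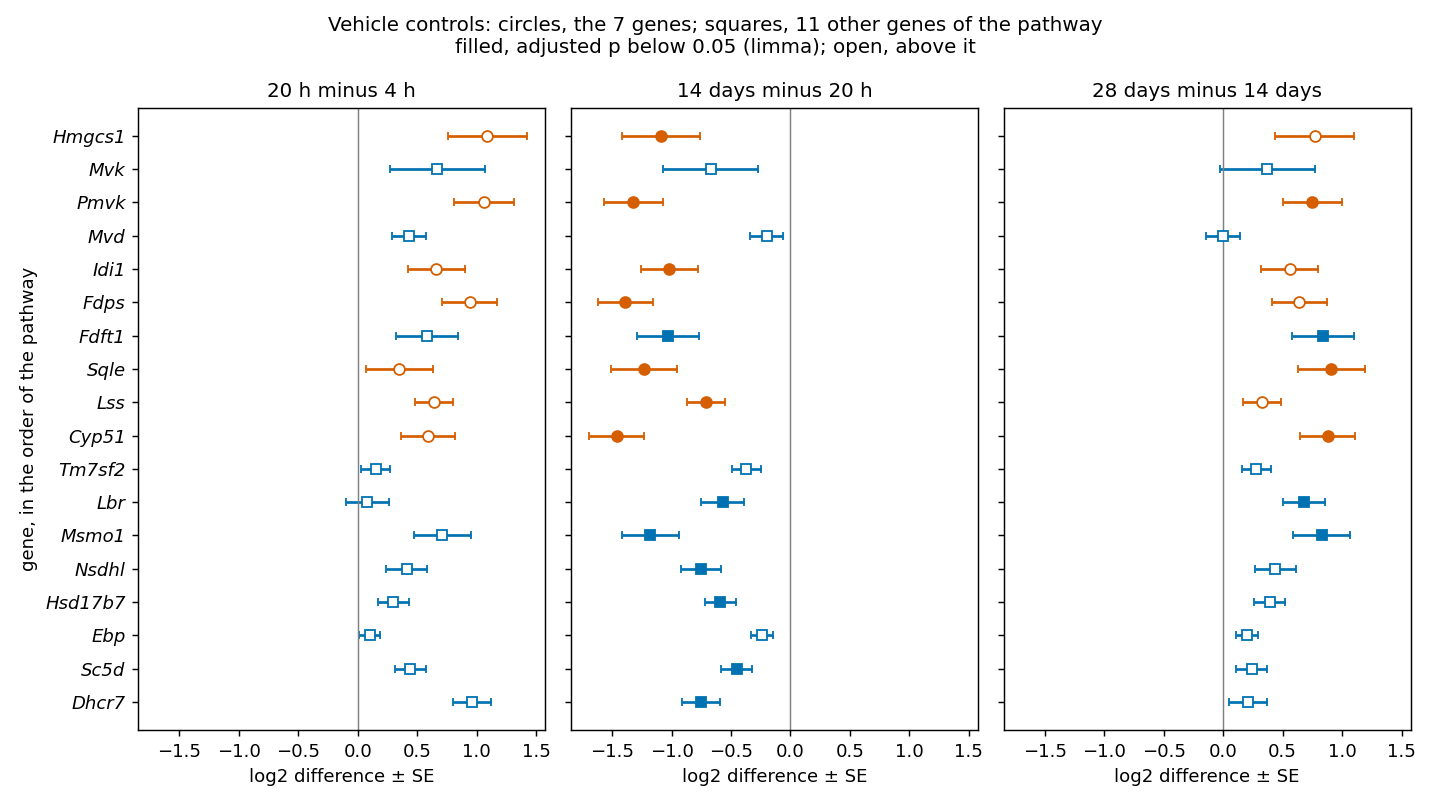
Fitted log2 difference ± SE (x axis) between times in the vehicle controls for 18 genes in the order of the pathway (y axis), circles for the 7 genes and squares for 11 others, filled where the limma adjusted p was below 0.05. From 20 h to 14 days all 18 values lie below 0 and 14 are filled.

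Genes that regulate, take up or export sterol did not share one direction. Of 21 listed, 14 were measured. From 20 h to 14 days 11 had lower and 3 higher values, with a median of -0.23, and 2 of 14 passed, a share near the 13.2% of all probe sets called lower. These were Mbtps1, the protease that cleaves SREBP, at -0.53 (SE 0.11, limma adjusted p = 0.00746), and Scarb1, the receptor for HDL, at -0.41 (SE 0.10, limma adjusted p = 0.0184). From 14 to 28 days 4 of 14 rose, beside 15.7% of all, Mbtps1 (0.56), Scap (0.52), Nr1h3 (0.36), the sterol receptor LXR alpha, and Abca1 (0.34), a cholesterol exporter. Srebf2, the gene of SREBP2, was at 0.26 from 20 h to 14 days and did not pass. From 4 h to 14 days 4 of 14 passed, in both directions. Srebf1, the gene of SREBP1, rose by 0.61 (SE 0.17, limma adjusted p = 0.0353). Cyp7a1, the rate-limiting enzyme of bile acid synthesis, fell by 1.20 (SE 0.36, limma adjusted p = 0.0461), Abca1 by 0.37 and Mbtps1 by 0.36, so that 3 of 14 were called lower, beside 9.6% of all probe sets.

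Markers of some cell types moved in the same comparison. From 20 h to 14 days 8 of 8 hepatocyte markers had lower values, with a median of -0.22, and 3 passed, beside 13.2% of all probe sets called lower. Their summed signal was 66800 to 93300 in the 20 h controls and 61500 to 73500 in those of 14 days. Of 9 Kupffer cell markers 8 had lower values, with a median of -0.30, and 3 passed, and their summed signal went from 2640 to 3440 at 20 h to 2210 to 2750 at 14 days. Lymphocyte markers had 5 of 6 higher values, with a median of 0.20 and 1 called lower, and endothelial markers had 4 higher and 4 lower values, with 1 called higher. Their part in the level of the 7 genes was not tested. Cholesterol synthesis follows the time of day in rodent liver, and 15 of 17 clock genes were measured. From 4 h to 20 h 0 of 15 passed in limma, beside 0.0109% of all probe sets. Dbp, here the clock gene and not the chemical, was at -1.52 (SE 0.62) and Arntl at 1.08 (SE 0.50). Controls of 1 time spread widely after 4 h. Dbp ran from 8.49 to 9.79 at 4 h and from 5.89 to 9.59 at 20 h. Arntl ran from 5.47 to 6.52 at 4 h and from 5.02, the floor, to 8.18 at 20 h. At 14 days Dbp ran from 5.92 to 9.76, and at 28 days from 5.74 to 9.65. The part of this spread in the levels of the 7 genes was not tested. From 20 h to 14 days 0 of 15 passed, beside 13.2% of all called lower and 3.18% higher. From 14 to 28 days 1 passed, Cry1, which rose by 0.87 (SE 0.24, limma adjusted p = 0.0235), beside 15.7% of all probe sets called higher. Its 14 day controls lay at or just above the floor, at 5.02 to 5.14. The sources used here do not give the time of day at which livers were taken.

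The 7 genes moved together across arrays. Over the 20 control arrays the Pearson correlation of each of the 21 pairs ran from 0.69 to 0.93, with a median of 0.84. Over all 52 arrays it ran from 0.70 to 0.92, with a median of 0.78. Over the 32 ratios of a chemical to its own control it ran from 0.59 to 0.94, with a median of 0.78. These are descriptions, since arrays share times and ratios share control arrays. Each of 10748 other genes was correlated with 1 averaged profile, the mean of the 7 genes after each was brought to the same mean and spread. A correlation with an average can exceed that of single pairs, so these values are not comparable with those above. The highest over 52 arrays were Nsdhl (0.85), Dhcr7 (0.84), Fdft1 (0.82), Rdh11 (0.80), Msmo1 (0.79), Scpep1 (0.77), Cyp8b1 (0.76) and Acss2 (0.74). Over the 32 ratios the first 4 were Nsdhl (0.89), Erg28 (0.88), Csad (0.86) and Tm7sf2 (0.85).

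The next comparison asked whether genotoxic or non-genotoxic chemicals changed the level of the 7 genes at each time. The 13 arrays of each time were fitted with limma, with 1 term a class and control sets as blocks. The chemicals of a class stood in for replicates, so the error here is the spread between chemicals. A gene without a call may still have changed after a single chemical, which these fits do not test. In 14 class comparisons 0 of 7 genes passed the test, and the differences below are values with no call.

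At 4 h the genotoxic chemicals gave fitted values from -0.49 for Hmgcs1 to 0.15 for Pmvk, with 0 of 7 called in limma, 2 at an unadjusted p under 0.05 and a background of 0.0%. Hmgcs1 had the largest difference, at -0.49 (SE 0.13, limma adjusted p = 0.415). Its log2 ratio to the own control was -0.92 for ENU, -0.14 for DMN, -0.44 for DPN, -0.62 for AAT, -0.23 for DMBA and -0.58 for DBP, and 0.12 for EtOH and 0.30 for PB. All 6 genotoxic arrays were below their control and both non-genotoxic arrays above. Of the other 3 Hmgcs1 probe sets 1 had the same split, and the other 2 had 5 of 6 genotoxic ratios below 0 and EtOH below 0 as well, at -0.05 and -0.36. Cyp51, on its brightest probe set, had the same split, at -0.36, -0.06, -0.27, -0.42, -0.16 and -0.15 against 0.19 and 0.22. Its second probe set with signal in every array split 4 below and 2 above among the 6 genotoxic chemicals. The non-genotoxic class had values from -0.06 to 0.46, with 1 gene at an unadjusted p under 0.05 and a background of 0.136%. The difference between the classes was -0.70 (SE 0.27) for Hmgcs1 and -0.44 (SE 0.16) for Cyp51, both with a limma adjusted p of 1.00, and the background was 0.104%.

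At 20 h 7 of 7 genes had lower values after the genotoxic chemicals, with a median of -0.56, against 0.01 over all probe sets, and 0 of 7 were called in limma, 1 at an unadjusted p under 0.05, background 0.0%. Pmvk had the largest value, -1.04 (SE 0.34, limma adjusted p = 0.965), then Fdps at -0.94 (SE 0.63) and Hmgcs1 at -0.78 (SE 0.36). The non-genotoxic values were from -1.43 for Fdps to -0.06 for Lss, with 0 at an unadjusted p under 0.05 and a background of 0.153%. Without the EtOH array, PB alone had a median of -0.16 with 4 of 7 below 0, which becomes 0.16 with 4 of 7 above 0 if the PB and saline labels of 20 h are exchanged, while the genotoxic median stayed at -0.56 and 7 of 7 without the EtOH and PB set. The classes differed by -0.65 to 0.49, with 0 at an unadjusted p under 0.05 and a background of 0.114%.

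At 14 days the fitted class values lay on opposite sides of 0, but single genotoxic chemicals went different ways. After genotoxic chemicals 7 of 7 genes had higher fitted values, with a median of 0.51 against 0.05 over all probe sets. After non-genotoxic chemicals 7 of 7 had lower fitted values, with a median of -0.40 against -0.02. The median ratio to the own control was 1.25 for ENU, 1.23 for DMBA and 0.90 for DBP. It was 0.31 for DPN, 0.01 for AAT and -0.61 for DMN, where 7 of 7 genes were below 0. For EtOH and PB it was -0.28 and -0.45. In limma 0 of 7 were called in either class and 0 had an unadjusted p under 0.05, with backgrounds of 0.0% and 0.12%. Idi1 showed the widest gap between the classes, 1.10 (SE 0.55, limma adjusted p = 0.853), and the background of that comparison was 0.0599%.

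At 28 days the order was turned round, but the non-genotoxic side rested mostly on the 1 EtOH array. The median ratio to the own control was 1.42 for EtOH and 0.19 for PB, the dimmest array, where 3 of 7 genes were below 0. The genotoxic median was -0.11 and the non-genotoxic median 0.70, and 7 of 7 genes had higher values in the non-genotoxic class than in the controls. There the median over all probe sets was 0.09, and 8 of 8 hepatocyte markers had higher values, with a median of 0.43 and 0 called in limma. Their part in the values of the 7 genes was not tested. In limma 0 of 7 passed in either class or between them, 0 had an unadjusted p under 0.05, and the backgrounds were 0.0%, 1.02% and 0.518%. Hmgcs1 differed most between the classes, at -1.13 (SE 0.74, limma adjusted p = 0.577). Over time, the effect at 4 h minus the mean of later times was called for 0 of 7 genes in limma for the genotoxic class (0 at an unadjusted p under 0.05, background 0.00545%) and for 0 of 7 for the non-genotoxic class (0 at an unadjusted p under 0.05, background 0.0%).

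Within a class the chemicals went different ways, so each is given against its own control. There was 1 array of each, and these ratios have no test. Of 56 ratios at each time, 0 were at least 2-fold in either direction at 4 h, when 1.33% of all ratios were at least 2-fold higher and 1.2% lower. At 20 h 0 were higher (2.29% of all) and 11 lower (1.95% of all). At 14 days 16 were higher (2.15% of all) and 2 lower (1.43% of all), and at 28 days 7 were higher (1.21% of all) and 2 lower (0.986% of all). The 20 h count of lower ratios was 10 without the EtOH array, and PB added none.

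**Figure D3:**
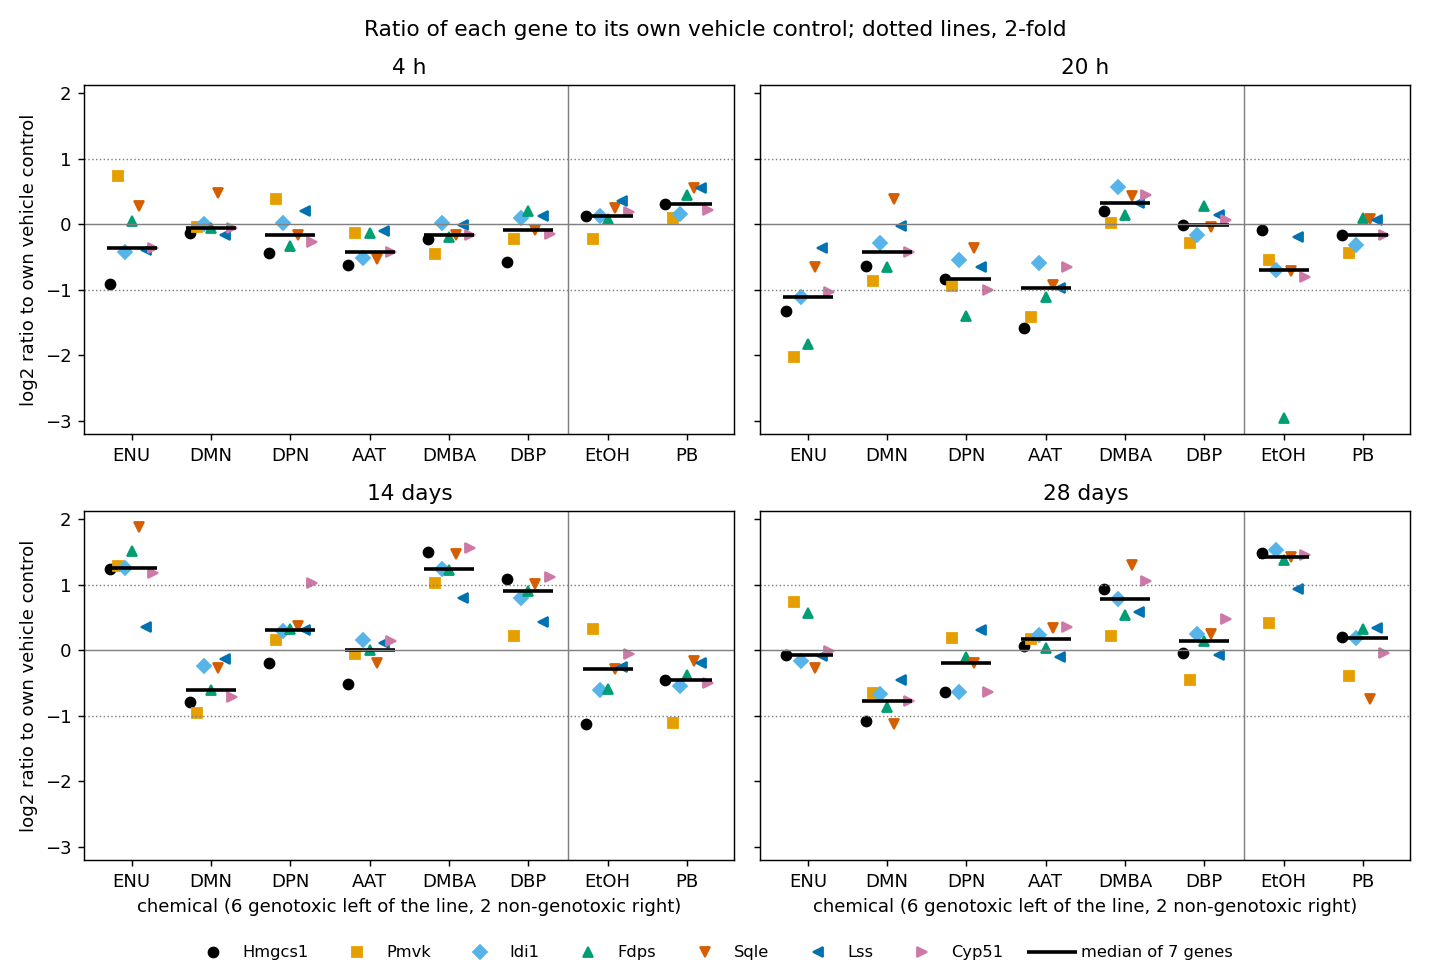
Log2 ratio to the own vehicle control (y axis) of 7 genes for 8 chemicals (x axis) at 4 times, 1 symbol for each gene, with the median of the 7 as a bar and 2-fold as dotted lines. ENU lies at a median of -1.11 at 20 h and 1.25 at 14 days, DMBA at 1.23 at 14 days and EtOH at 1.42 at 28 days.

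The 11 low ratios of 20 h came from ENU (5 genes), AAT (3), DPN (2) and EtOH (1). Each ratio was also set beside the largest difference between 2 saline controls for its gene at that time. At 20 h it was larger than that for 3 of 7 genes after ENU, 5 after AAT, 2 after DPN and 1 after EtOH. The share of all probe sets past it was not computed. ENU gave 7 of 7 ratios below 0 at 20 h, with a median of -1.11, while 45.5% of all probe sets were above 0. Pmvk was at 6.03 after ENU and 8.05 in its control, a ratio of -2.02. Fdps was at 9.42 and 11.24, a ratio of -1.82. Both ENU levels lay below all 5 controls of 20 h, as did 6 of the 7 genes, beside 11.1% of all probe sets. AAT, an aromatic amine, also gave 7 of 7 below 0 at 20 h, with a median of -0.98. Of all probe sets 46.6% were above 0 there. Hmgcs1 was at 10.05 after AAT and 11.64 in the olive oil control, a ratio of -1.59.

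DPN gave 7 of 7 below 0, with a median of -0.83 and Fdps the lowest at -1.40. Of all probe sets 48.5% were above 0 after DPN. Its 7 levels were below all 5 controls of 20 h, beside 14.3% of all probe sets, although its own control was already the lowest of the 5 for 7 of 7 genes. DMN had a median of -0.42 and no ratio past 2-fold. DMBA and DBP, which share the olive oil control with AAT, had medians of 0.32 and -0.02, and DMBA was above all 5 controls for 5 of 7 genes, beside 15.2% of all probe sets.

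EtOH at 20 h had 1 low ratio past 2-fold, Fdps at 8.37 against 11.34 in the array labelled saline, a ratio of -2.96. The probe sets of Hmgcs1 disagreed on that array. Their 4 ratios were -0.09, -0.78, -1.21 and -2.80, a spread of 2.71, while for the other 31 combinations of a chemical and a time the spread of the same probe sets was from 0.10 to 1.04. For Idi1 the 2 probe sets were at -0.70 and 0.18 there, a spread of 0.88, against 0.01 to 0.70 in the other 31. For Cyp51 the spread of 2 probe sets was 0.47 on that array, within the 0.01 to 1.64 of the other 31. PB at 20 h had a median of -0.16 as labelled, 0.16 with the 2 labels exchanged, and no ratio past 2-fold either way. EtOH read against the array labelled PB had a median of -0.38, against -0.70 as labelled, with Fdps at -3.07.

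**Figure D4:**
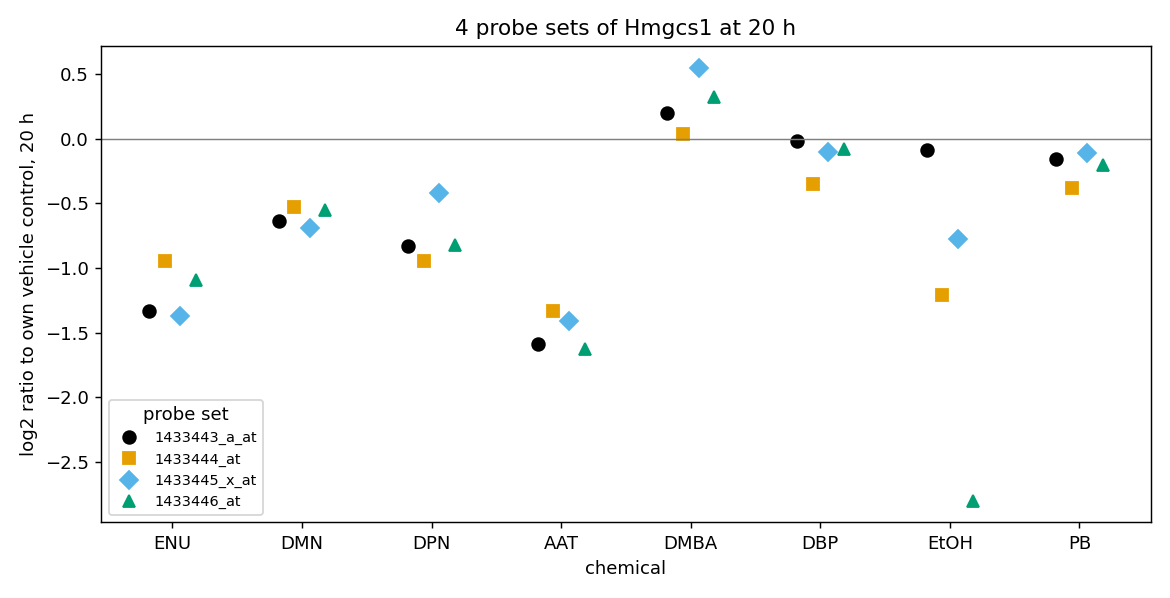
Log2 ratio to the own vehicle control at 20 h (y axis) of the 4 Hmgcs1 probe sets for 8 chemicals (x axis), 1 symbol for each probe set. The probe sets lie close together for ENU and AAT, and range from -2.80 to -0.09 for EtOH.

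At 14 days the 16 high ratios came from ENU (6 genes), DMBA (6), DBP (3) and DPN (1). Ratios beyond the largest saline difference of the gene numbered 4 of 7 for ENU, 3 for DMBA, 1 for DBP and 0 for DPN. DMBA gave 7 of 7 above 0, with a median of 1.23. Cyp51 was at 8.77 after DMBA and 7.21 in the olive oil control, a ratio of 1.56. Hmgcs1 was at 11.02 and 9.52, a ratio of 1.5. All 7 genes were above all 5 controls of 14 days, beside 11.9% of all probe sets. DBP, like DMBA a polycyclic aromatic hydrocarbon, shared that control array and gave 7 of 7 above 0, beside 56.8% of all probe sets. Its median was 0.90, and 6 of 7 were above all 5 controls, beside 16.2% of all. AAT, against the same control, had a median of 0.01 and 0 of 7 above all 5 controls.

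ENU at 14 days had a median of 1.25. Sqle was at 8.35 after ENU and at 6.47 in the ENU control, a ratio of 1.88. That control was the lowest of the 5 for Sqle, Fdps, Hmgcs1 and Pmvk, and had the lowest median signal of the 14 day controls, 40.5. Against all 5 controls 5 of 7 ENU levels were higher, beside 22% of all probe sets. DMN had 7 of 7 below 0 with a median of -0.61, while 36.2% of all probe sets were above 0. Of its 7 levels 0 were below all 5 controls, its own control being the highest. DPN had a median of 0.31. EtOH and PB had medians of -0.28 and -0.45, with 1 ratio each past 2-fold lower, Hmgcs1 at -1.12 for EtOH and Pmvk at -1.11 for PB.

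At 28 days the 7 high ratios came from EtOH (5 genes) and DMBA (2). Beyond the largest saline difference of the gene lay 1 of 7 EtOH ratios, Lss at 0.93, and 0 of 7 DMBA ratios. EtOH gave 7 of 7 above 0, beside 56.6% of all probe sets, with a median of 1.42. Idi1 was at 10.36 after EtOH and 8.83 in its control, a ratio of 1.53. Hmgcs1 was at 11.57 and 10.09, a ratio of 1.48. Of the 7 genes 1, Lss at 8.56, was above all 5 controls, beside 19.5% of all probe sets, and for the other 6 the DMN control was higher. PB, read against the same control as EtOH, had a median of 0.19, with Sqle at -0.75. DMBA had a median of 0.78, with Sqle at 1.30 and Cyp51 at 1.05, and DMN a median of -0.78, with Sqle at -1.13 and Hmgcs1 at -1.08, against the highest control. AAT, DBP, ENU and DPN had medians from -0.19 to 0.17.

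**Figure D5:**
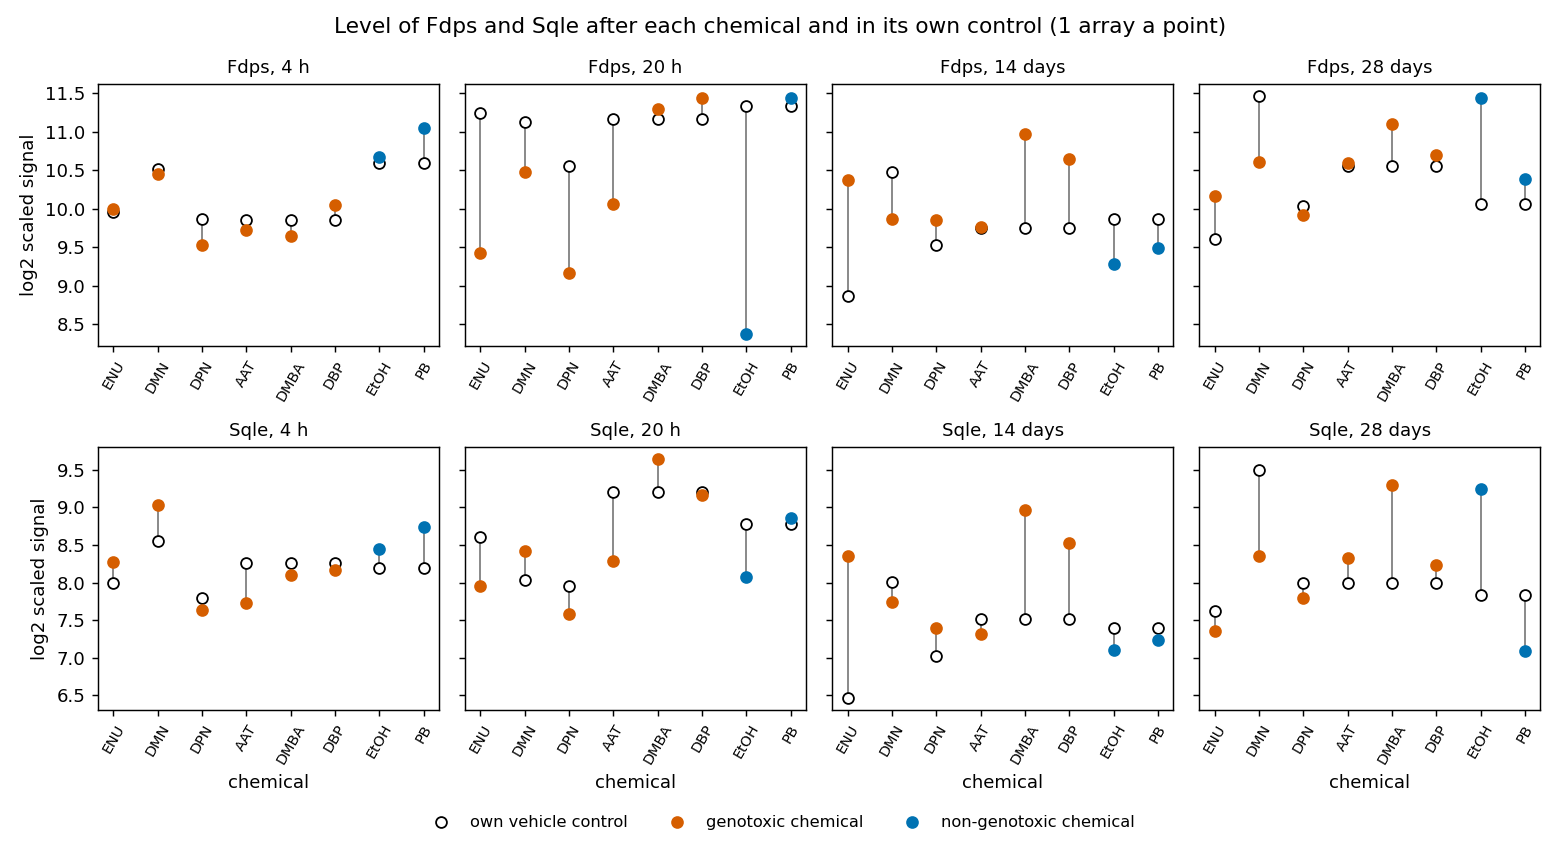
Log2 scaled signal (y axis) of Fdps and Sqle after each of 8 chemicals (x axis, filled points) and in the own vehicle control (open points) at 4 times, 1 array a point. At 14 days the ENU control lies at 6.47 for Sqle and ENU at 8.35, and at 28 days the DMN control lies at 9.49.

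The same chemicals were read in the 11 other enzymes of the pathway. At 20 h 11 of 11 had ratios below 0 after ENU, with a median of -0.42, and 11 of 11 after AAT, with a median of -0.61. EtOH had the lowest median at 20 h, -1.05, on the array with the high 3' to 5' ratios. At 14 days the medians were 0.69 for DMBA (11 of 11 above 0), 0.55 for ENU (10), 0.40 for DBP (10) and -0.39 for DMN (0). At 28 days they were 0.67 for EtOH (11 of 11 above 0), 0.31 for DMBA (10) and -0.49 for DMN (0). Of all probe sets 47.0% were above 0 for DMBA and 41.7% for DMN at 28 days. The shares for the other arrays with such counts are those given above. The ratios of these enzymes were taken against the same control arrays as those of the 7 genes, so the likeness is a description only.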

How the data were processed

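Intensity values on a linear scale, made by the authors from Affymetrix arrays, were deposited for 22690 probe sets and 52 arrays. The sources used here give neither the software and scaling behind them nor detection calls. The platform annotation gave 1 gene symbol for 20380 probe sets. The paper names another array type than the annotation does. The 64 control probe sets were left out, each array was scaled to a common median, values under the 30th percentile (a signal of 32.53) were raised to it, and log2 was taken. Probe sets above this floor in at least 4 arrays were kept (18349).

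Controls were fitted across the 4 times, and classes within each time, using lmFit and eBayes (with a variance trend) of limma, version 3.58.1 under R 4.3.3, and the control set entered as a fixed block. A call was a Benjamini-Hochberg adjusted p under 0.05 over all kept probe sets. The fits were tested on simulated data. The number of arrays limits the precision, and with 1 array of each chemical at each time no ratio has a replicate. Plots were made in Python 3.11.15 using matplotlib 3.10.9.

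The members, the lists and the rule for genes to name were chosen with earlier results of these data known. All 7 members are named, together with the genes of the sterol and clock lists that passed and some that had the largest values. Srebf2 and Cyp2b10 were named for their known roles after their values were seen. Dbp and Arntl had the largest differences of the clock genes between controls at 20 h and 4 h. Tef (-0.69) and Bhlhe40 (-0.65) came next, did not pass either and were not described. Alternatives covered scaling, floor, filter, block, variance trend, probe set, fold limit, and control sets or chemicals left out.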

Additional observations from a re-analysis of the deposited data

Results flagged for a closer look

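In 2 of 28 groups of 4 saline controls (7 genes at 4 times), 1 array lay far from the other 3 by Dixon's criterion for 4 values, which compares that gap with the whole range and which chance passes in about 1 in 20 groups. For Hmgcs1 at 28 days the DMN control was at 11.78 and the others at 10.09 to 10.35, a gap of 0.844 of the range. For Pmvk at 20 h the DPN control was at 7.02 and the others at 8.02 to 8.17, a gap of 0.866 of the range.

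In 17 cases all chemicals of one group lay on one side of 0 and all of the other on the opposite side. The scan took each gene at each time between the classes, and each pair of times within each class. How often other probe sets split in this way was not computed, so the count is no result about these genes. The values below are differences of mean log2 ratios. None was called by limma, which tested the class difference at 4 h and the 4 h effect against the mean of later times. The single pairs of times below were not tested. At 4 h, genotoxic minus non-genotoxic was -0.70 for Hmgcs1 and -0.44 for Cyp51 (6 of 6 against 2 of 2 arrays). The other 15 cases concern EtOH and PB, 2 arrays at each time, which share 1 control. From 4 h to 14 days their mean ratio moved by -0.99 for Hmgcs1, -0.62 for Sqle, -0.75 for Fdps, -0.71 for Idi1, -0.48 for Cyp51 and -0.68 for Lss. From 14 to 28 days it moved by 1.62 for Hmgcs1, 1.33 for Fdps, 1.43 for Idi1 and 0.86 for Lss. From 4 h to 20 h it moved by -0.34 for Hmgcs1, -0.65 for Idi1 and -0.69 for Cyp51, and from 20 h to 28 days by 0.97 for Hmgcs1 and 1.37 for Idi1, and these 5 values rest on the 20 h control whose Cyp2b10 level goes against its label.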

How the results depend on the processing

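In the 14 class comparisons 0 members were called under every alternative run, and 0 in the controls between 4 h and 20 h and between 28 days and either of these. The 7 calls between 20 h and 14 days were 0 without scaling, 4 with quantile normalization and 3 with saline controls alone, and 3 to 7 with 1 control set left out. The 3 calls between 14 and 28 days were 0 without scaling, with quantile normalization, without the block or with saline controls alone, 1 with no filter, 0 to 4 with 1 control set left out, and 0 without the 28 day DMN control (chosen after the data were seen). The 1 call between 4 h and 14 days was 0 without scaling, with quantile normalization, no filter, no block, saline controls alone or the second probe set, 2 with no floor, above the floor in every array or without the 28 day DMN control, and 0 to 2 with 1 control set left out. Of the single values of the 7 members run under the alternatives, 1 changed sign: Lss in the non-genotoxic class at 28 days was -0.19 without scaling, where the median of all probe sets moved to -0.49 from 0.09. At a limit of 1.5-fold the ratios past it were 1 higher and 2 lower at 4 h, 0 higher and 25 lower at 20 h, 19 higher and 8 lower at 14 days, and 11 higher and 10 lower at 28 days. The lower count at 14 days was 9 without scaling and 1 with no floor, a floor at the 50th percentile or the second probe set, and that at 28 days 9 without scaling and 1 with quantile normalization. The cause of these changes was not tested. Genes of the other lists were read as reported only, under no alternative. With the labels of the 20 h PB and saline arrays exchanged (chosen after the data were seen) the count of lower ratios at 20 h was 11, as before. The control set, which ties each chemical to its own control, was the block of every fit except the one without it, and the labels give no replicate numbers to pair by.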
